A study of Mus musculus with 6 samples.

Results

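The 33 genes described here encode the folding machinery of the endoplasmic reticulum (ER) and the unfolded protein response that adjusts it. They were taken by name from the table of 23415 genes that the authors deposited, and all 33 were found there and tested, among 11515 tested genes. The study compared 3 alkaline sphingomyelinase (Enpp7) knockout mice, animals 82, 84 and 85, with 3 wildtype mice, animals 81, 83 and 90, all C57BL/6. The genotype was read from the letters K and W of the sample names, and the labels give no age, sex, treatment or origin of the null allele. Enpp7 is an intestinal enzyme that splits sphingomyelin, and both the tissue label and the series title say liver, although the design text speaks of intestine. The deposited tables hold 1 FPKM value per group (reads scaled for transcript length and sequencing depth), so no spread between mice can be given.

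Proteins for secretion or for membranes enter the ER through the Sec61 translocon, fold there with chaperones and disulfide isomerases, and leave for the Golgi or are pulled back into the cytosol and degraded. When folding lags, the membrane sensors IRE1 (gene Ern1), PERK (Eif2ak3) and ATF6 are released from the chaperone Hspa5. IRE1 splices Xbp1 mRNA into the form that encodes an active factor, ATF6 is cut to free another factor, and PERK slows translation. Hepatocytes secrete most plasma proteins and carry a large ER, and they add a liver sensor, Creb3l3 (CREBH).

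Of the 33 genes, Derl3 was higher and Creld2 was lower in the knockout livers, and the other 31 did not pass. Derl3, a member of the Derlin family that passes misfolded proteins out of the ER, was at 5.64 FPKM in knockout livers and 1.59 FPKM in wildtype livers, 3.55-fold higher. Creld2, a small ER protein induced by ER stress, was at 26.5 FPKM in knockout livers and 54.2 FPKM in wildtype livers, 2.05-fold lower. Several central members lay close together in the groups (pairs of values give knockout first), with Xbp1 at 93.8 and 91.3 FPKM, Hsp90b1 at 282 and 282 FPKM, and Atf6 at 9.75 and 10.6 FPKM. Others, such as Hspa5 at 327 and 421 FPKM and Herpud1 at 202 and 369 FPKM, were lower in knockout livers without passing. Of the 33 genes 22 were lower and 11 higher in knockout livers, where 50.1% of all tested genes were lower. A gene is called here when q, the p-value adjusted over all tested genes in the authors' deposited table, is under 0.05. Of all tested genes 1.08% were called, 0.573% as higher and 0.504% as lower in knockout livers, against 1 and 1 of these 33.

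The promoters of several of these genes carry the ER stress element, ERSE, a CCAAT box for the factor NF-Y and a CCACG half-site for ATF6 or XBP1 set 9 bases apart. RefSeq windows from 250 bases before to 50 bases after the gene start (GRCm38.p6, the assembly that mm10 stands for) were found for 27 of the 33 genes. The exact letters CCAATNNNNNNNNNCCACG, on either strand, occurred in 10 of those 27 genes. Over all 32851 windows, of 27025 genes, they occurred in 37 genes (0.137%), those 10 included. The related element ERSE-II, ATTGGNCCACG, occurred in 2 more, Herpud1 and Dnajb11, against 12 of all 27025 genes (0.0444%), those 2 included. The contrast with all genes was not tested. The matched sites are shown because both called genes have one, Creld2 on the lower and Derl3 on the higher side. They are written 5′ to 3′ on the strand that carries the motif, with the fixed letters in capitals and the spacer in lower case.
Creld2: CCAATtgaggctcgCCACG
Derl3: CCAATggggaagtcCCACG
Hspa5: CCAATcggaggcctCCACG
Hsp90b1, far site: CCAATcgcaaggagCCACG
Hsp90b1, near site: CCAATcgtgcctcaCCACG
Calr: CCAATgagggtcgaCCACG
Canx: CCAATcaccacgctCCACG
Pdia6: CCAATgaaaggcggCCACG
Dnajc3: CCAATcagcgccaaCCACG
Ero1lb: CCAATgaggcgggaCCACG
Syvn1: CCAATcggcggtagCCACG
Herpud1, ERSE-II: ATTGGgCCACG
Dnajb11, ERSE-II: ATTGGcCCACG

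The full windows of the 2 called genes and of Herpud1, the gene nearest to being called, are given on the gene's own strand, with the fixed letters of ERSE or ERSE-II in capitals. An ERSE on the opposite strand reads CGTGG, spacer, ATTGG, as in Creld2 and Derl3. In Herpud1 the letters TTGCATCA, which resemble the element bound by ATF4 with a C/EBP partner and occurred in 0.895% of all windows, are in capitals too.
Creld2 (chr15:88819396-88819695, plus strand): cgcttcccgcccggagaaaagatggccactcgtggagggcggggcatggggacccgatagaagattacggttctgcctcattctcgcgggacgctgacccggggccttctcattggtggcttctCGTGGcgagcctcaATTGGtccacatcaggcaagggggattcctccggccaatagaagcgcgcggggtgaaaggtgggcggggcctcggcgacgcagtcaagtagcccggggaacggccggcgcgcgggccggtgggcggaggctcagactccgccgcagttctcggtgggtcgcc
Derl3 (chr10:75893148-75893447, plus strand): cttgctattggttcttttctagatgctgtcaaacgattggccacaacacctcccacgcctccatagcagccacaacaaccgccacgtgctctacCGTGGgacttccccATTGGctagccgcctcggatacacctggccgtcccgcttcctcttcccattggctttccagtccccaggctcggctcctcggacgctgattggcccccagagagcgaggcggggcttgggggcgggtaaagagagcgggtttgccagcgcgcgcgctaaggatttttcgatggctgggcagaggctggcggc
Herpud1 (chr8:94386179-94386478, plus strand): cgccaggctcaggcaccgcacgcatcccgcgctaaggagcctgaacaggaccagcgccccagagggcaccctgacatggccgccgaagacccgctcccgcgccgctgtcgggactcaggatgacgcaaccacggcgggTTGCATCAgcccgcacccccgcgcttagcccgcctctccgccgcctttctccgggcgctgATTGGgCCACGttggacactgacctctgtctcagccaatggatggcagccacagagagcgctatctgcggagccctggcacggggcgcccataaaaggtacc

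The ERSE matches ended between 26 bases (Syvn1) and 194 bases (the far site of Hsp90b1) before the gene start, and 6 of the 11 matches lay on the gene's strand. Genes with such a match lay on both sides of 0. The log2 ratio of knockout over wildtype ran from -1.03 (Creld2) to 1.83 (Derl3) over the 12 genes with ERSE or ERSE-II, 5 above 0 and 7 below, with a median of -0.07. Over the 15 genes with a window and no such match it ran from -0.63 (Dnajb9) to 0.45 (Sdf2l1), with a median of -0.09. Of these 15, 2 held a looser form of ERSE, with CCNNG in place of CCACG. That form, the exact one included, occurred in 1.55% of all genes with a window. The palindrome TGACGTCA, a site for CREB and ATF factors present in 2.03% of all genes with a window, was found in Ppp1r15a alone. The XBP1 motif TGACGTGG, present in 0.714% of all genes with a window, was found in none of the 27. A match is a stretch of letters and not a measured binding site, and Hyou1, Manf, Derl1, Atf6, Sec61a1 and Ssr2 were not analysed here for motifs.

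**Figure D1:**
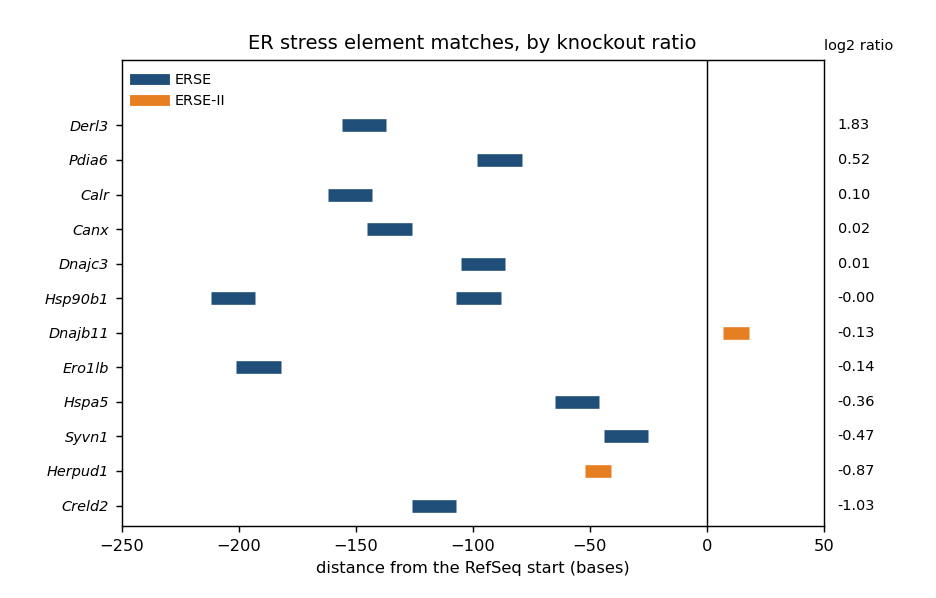
Position of each ERSE (blue) and ERSE-II (orange) match relative to the RefSeq gene start, in bases, for the 12 genes that hold one; genes are ordered by log2 ratio of knockout over wildtype, printed at the right. Matches lie upstream except that of Dnajb11, and the ratios run from 1.83 for Derl3 to -1.03 for Creld2.

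The livers expressed most of these genes strongly. In the wildtype group 9 stood at 100 FPKM or more, 21 between 10 and 100 FPKM and 3 under 10 FPKM. Their median was 54.2 FPKM in wildtype livers and 50.2 FPKM in knockout livers, where the median of all tested genes was 6.50 and 6.47 FPKM. The disulfide isomerase P4hb was highest, at 582 FPKM in knockout livers and 585 FPKM in wildtype livers, and Derl3 was lowest in wildtype livers. Together the 33 genes summed to 3489 FPKM in knockout livers and 3706 FPKM in wildtype livers, or 0.540% and 0.656% of all listed FPKM. All listed FPKM came to 646306 in knockout livers and 564749 in wildtype livers, so the shares also differ through the larger knockout total.

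**Figure D2:**
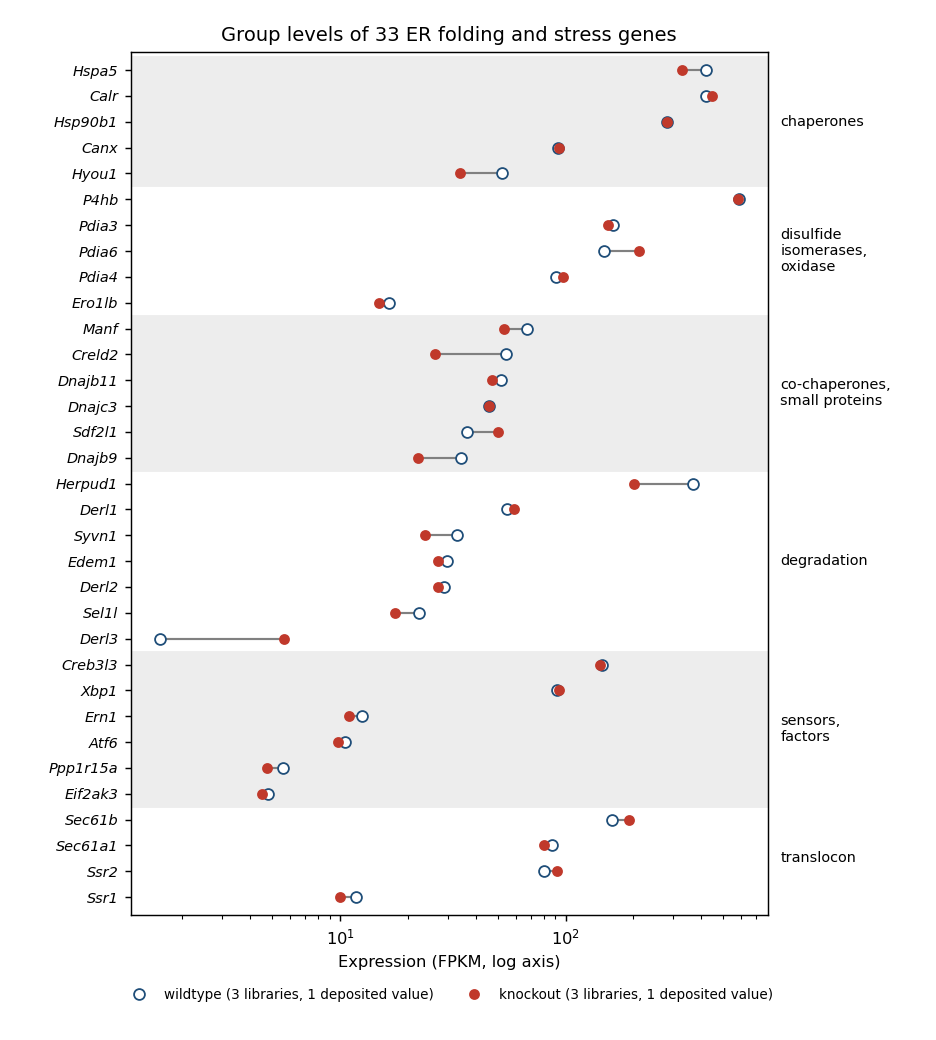
Deposited FPKM on a log axis for the 33 genes, grouped by role and ordered by wildtype level; open circles are the wildtype value and filled circles the knockout value, 1 per group of 3 libraries, with no error available. The largest gaps are those of Derl3 (1.59 to 5.64 FPKM), Creld2 (54.2 to 26.5 FPKM) and Herpud1 (369 to 202 FPKM), while P4hb and Hsp90b1 nearly coincide.

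Hepatocyte markers were high in both groups, while markers of neutrophils and macrophages were higher in knockout livers. The 14 hepatocyte markers summed to 55907 FPKM in knockout livers and 49576 FPKM in wildtype livers. Of 13 tested, 0 were called (2 at an unadjusted p under 0.05). Alb was listed at 0 in both and not tested, with the status HIDATA, the mark of a locus with too many reads. Its 0 is therefore not a measured level, and Alb is missing from these sums and from all listed FPKM. The 16 intestinal epithelium markers summed to 103 and 87.3 FPKM, 11 of them under 1 FPKM in both groups. Of 7 tested none was called, with a median log2 ratio of 0.73 and 2 at an unadjusted p under 0.05, both higher in knockout livers. These were Tff3 at 48.8 and 23.9 FPKM (q = 0.0775 in the authors' deposited table) and Fabp6 at 1.97 and 0.280 FPKM. The 7 ratios went both ways, 5 above 0 and 2 below, the lower ones being Fabp2 at 42.9 and 54.7 FPKM and Lgals4 at 4.51 and 5.45 FPKM. Neutrophil markers summed to 109 FPKM in knockout livers and 6.29 FPKM in wildtype livers, with 4 of 8 tested called higher, and Kupffer cell and macrophage markers to 526 and 333 FPKM, with 2 of 11 called higher. Cholangiocyte markers stood at 156 and 75.2 FPKM, of which Spp1, the 1 called higher of 6 tested, held 142 and 62.6 FPKM. The median log2 ratio of those 6 was 0.20. Sinusoidal endothelium stood at 125 and 131 FPKM and stellate cells at 65.0 and 74.8 FPKM. None of 9 was called in either (1 and 2 at an unadjusted p under 0.05, all lower). In bulk RNA, fewer cells of a type and less RNA per cell cannot be told apart. Enpp7 itself was at 0.141 FPKM in knockout livers and 0.0541 FPKM in wildtype livers and was not tested, so it does not check the genotype labels.

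Among the ER chaperones, none of 5 passed, and 1 had an unadjusted p under 0.05. Hspa5 (BiP), the Hsp70 of the ER lumen and the partner of all 3 stress sensors, was at 327 FPKM in knockout livers and 421 FPKM in wildtype livers (log2 ratio -0.36 ± 0.28 SE, with a 95% interval of -0.90 to 0.18). The error is the one implied by the authors' z statistic and not a spread between mice. Hyou1, a large Hsp70 relative that exchanges nucleotide on Hspa5, was at 34.2 and 52.3 FPKM (-0.61 ± 0.23, q = 0.307 in the authors' deposited table). Hsp90b1, the Hsp90 of the ER, was at 282 FPKM in both groups (interval -0.53 to 0.52). The lectin chaperones of glycoproteins were also close in level, with Calr at 447 and 417 FPKM (0.10 ± 0.28) and Canx at 93.9 and 92.7 FPKM (0.02 ± 0.24). The summed level of these 5 chaperones was 1184 FPKM in knockout livers and 1266 FPKM in wildtype livers.

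Of the enzymes that form and rearrange disulfide bonds, none of 5 passed. Pdia6, an isomerase that also binds the sensors IRE1 and PERK, was the one with an unadjusted p under 0.05, at 212 FPKM in knockout livers and 147 FPKM in wildtype livers (0.52 ± 0.25, q = 0.791 in the authors' deposited table). Its relatives lay near 0: Pdia3, the partner of the lectin chaperones, at 153 and 163 FPKM, Pdia4 at 97.3 and 90.6 FPKM, and P4hb at 582 and 585 FPKM (-0.01 ± 0.31). The oxidase Ero1lb (now Ero1b), which recharges the isomerases, was at 14.9 and 16.4 FPKM. P4hb lies 1.57 Mb from Enpp7 on chromosome 11, the nearest of the 5 members on that chromosome.

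The co-chaperones and small stress proteins held the one fall. Creld2 lies on chromosome 15 at 88819646 to 88826681 (mm10), in 10 exonic blocks of the GENCODE M21 annotation. Its log2 ratio was -1.03 ± 0.24 (interval -1.50 to -0.57, q = 0.00264 in the authors' deposited table). By size this was the 35th of the 58 falls. Alg12, a mannosyltransferase gene that starts 328 bases away on the opposite strand and whose own window takes in the same ERSE letters as that of Creld2, was at 3.12 and 4.17 FPKM (-0.42 ± 0.36, q = 1.00 in the authors' deposited table). No annotated exon of another gene overlaps Creld2.

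Other members of this group lay on both sides of 0. Dnajb9, a J-protein that recruits Hspa5 to IRE1 and to misfolded clients, was at 22.2 FPKM in knockout livers and 34.3 FPKM in wildtype livers (-0.63 ± 0.24, q = 0.329 in the authors' deposited table). Manf, a secreted survival factor kept in the ER by Hspa5, was at 53.2 and 67.8 FPKM (-0.35 ± 0.22). Sdf2l1, which works with the J-protein Dnajb11 to keep clients soluble, was at 50.2 and 36.7 FPKM (0.45 ± 0.24, unadjusted p = 0.0581 in the authors' deposited table), while Dnajb11 itself was at 47.1 and 51.7 FPKM. Dnajc3, a J-protein of the lumen, stood at 45.9 and 45.6 FPKM.

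The genes of ER-associated degradation held the one rise and, in Herpud1, the largest difference in FPKM of the 33. Derl3 lies on chromosome 10 at 75893398 to 75895941 (mm10), with 4 exonic blocks, and no annotated exon of another gene overlaps it. Its log2 ratio was 1.83 ± 0.42 (interval 1.01 to 2.65, q = 0.00217 in the authors' deposited table), the 26th largest of 66 rises. Its relatives Derl1 and Derl2 did not pass, at 58.8 and 54.8 FPKM and at 27.1 and 28.8 FPKM. Derl3 therefore made up 6.16% of the Derlin transcripts, per length, in knockout livers and 1.87% in wildtype livers, and Derl1 stood 10.4-fold and 34.4-fold above it.

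Because Derl3 is known to be abundant in pancreas and in plasma cells, the markers of both are given with it. Of 11 pancreatic acinar markers 9 were under 1 FPKM in both groups, and the list summed to 3.20 FPKM in knockout livers and 5.79 FPKM in wildtype livers, with Amy2a5 listed at 0 in both. Of 11 B and plasma cell markers 9 were likewise under 1 FPKM in both groups, and the list summed to 121 and 105 FPKM, of which Sdc1, also a hepatocyte gene, held 118 and 102 FPKM. Of the plasma cell genes, Mzb1 was at 0.278 and 0.312 FPKM, Tnfrsf17 at 0.0285 and 0.0746 FPKM, Igj at 0.611 and 0.521 FPKM, Irf4 at 0.0744 and 0.0527 FPKM and Prdm1 at 0.0793 and 0.0662 FPKM, so their values lay on both sides. Only 3 of the 11 were tested (Igj, Sdc1 and Cd79b), with 0 called, 0 at an unadjusted p under 0.05 and a median log2 ratio of 0.22. The neutrophil and macrophage levels given above moved in the same direction as Derl3, and their part in its rise was not tested.

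Herpud1, a membrane scaffold of the degradation complex and a strongly inducible stress gene, was at 202 FPKM in knockout livers and 369 FPKM in wildtype livers. Its log2 ratio was -0.87 ± 0.25 (interval -1.37 to -0.37), so the interval leaves out 0, but its q of 0.0569 in the authors' deposited table was just outside the threshold. Its q stayed outside the threshold with only genes of a mean FPKM of at least 1 (0.0524) and with every listed p adjusted (0.116). It passed under the 3 alternative scalings of the groups, which kept the standard error from the deposited z and refitted no test. Of these, an equal sum (q = 0.00364) and an equal sum without the 100 highest genes (q = 0.0293) lower every log2 ratio alike, by 0.19 and 0.05. After quantile normalization, which moved the median of all tested genes to -0.02, its q was 0.0211. Herpud1 lies on chromosome 8 at 94386500 to 94395358 (mm10), and its difference of 167 FPKM makes up most of the 177 FPKM by which the 7 degradation genes together were lower.

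The remaining 3 degradation genes had ratios below 0 and did not pass. Syvn1 (HRD1), the ubiquitin ligase of the complex, was at 23.8 FPKM in knockout livers and 33.03 FPKM in wildtype livers (-0.47 ± 0.31). Sel1l, its adaptor, was at 17.6 and 22.3 FPKM (-0.35 ± 0.26), and Edem1, which marks glycoproteins for disposal by trimming mannose, at 27.2 and 29.8 FPKM.

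None of the 6 sensor, factor and feedback genes passed, and 0 had an unadjusted p under 0.05. Ern1 was at 10.997 FPKM in knockout livers and 12.5 FPKM in wildtype livers, Atf6 at 9.75 and 10.6 FPKM, and Eif2ak3 at 4.49 and 4.80 FPKM. Creb3l3, the liver factor cut like ATF6, was far more abundant than these 3 and stood at 143 and 145 FPKM (-0.02 ± 0.24). Xbp1 was at 93.8 and 91.3 FPKM (0.04 ± 0.25, interval -0.44 to 0.52), and a value per gene does not separate its spliced from its unspliced mRNA. Ppp1r15a (GADD34), which undoes the PERK brake on translation, was at 4.75 and 5.60 FPKM (-0.24 ± 0.28). Their transcript levels say nothing of whether the sensor proteins were active.

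The 4 translocon genes did not pass either, with 0 at an unadjusted p under 0.05. Sec61a1, the channel, was at 80.3 FPKM in knockout livers and 87.3 FPKM in wildtype livers, and the small subunit Sec61b at 190 and 160 FPKM (0.25 ± 0.22). Of the translocon-associated proteins, Ssr1 stood at 10.03 and 11.7 FPKM and Ssr2 at 91.6 and 80.4 FPKM.

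**Figure D3:**
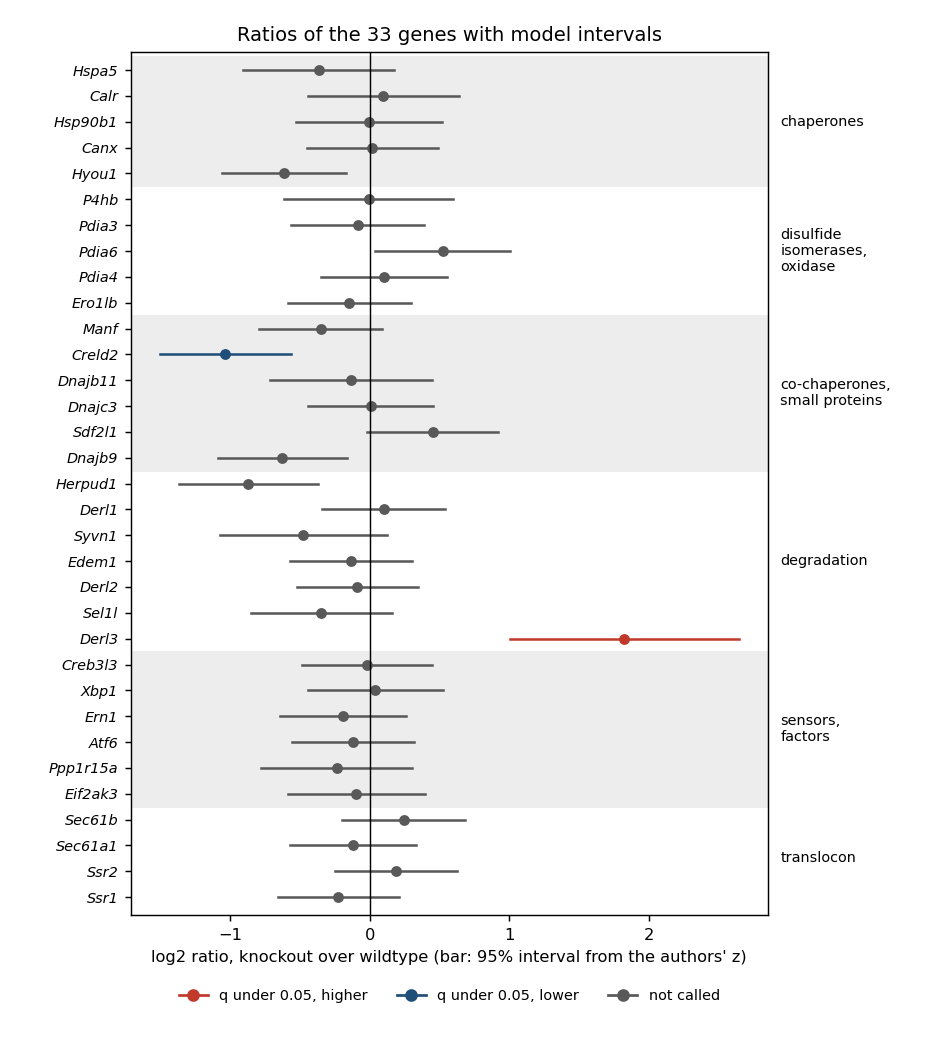
The log2 ratio of knockout over wildtype for each of the 33 genes, with bars for the 95% interval derived from the authors' z statistic; red is called higher, blue called lower and grey not called. Derl3 at 1.83 and Creld2 at -1.03 stand apart from 0, and the intervals of Herpud1, Hyou1, Dnajb9 and Pdia6 also leave out 0 without passing q under 0.05.

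Across the 33 genes 22 ratios were below 0 and 11 above, with a median of -0.10, against 50.1% below 0 and a median of 0.00 over all tested genes. At an unadjusted p under 0.05 there were 2 higher (Derl3, Pdia6) and 4 lower (Creld2, Herpud1, Hyou1, Dnajb9), 6 in all, where 2.82% and 2.47% of all tested genes stood, 5.29% together. The median size of a ratio, whatever its sign, was 0.14 among the 33 and 0.17 among all tested genes, and 22 of the 33 (66.7%) lay within 0.25 of 0, against 67.2% of all tested genes. For 26 genes the 95% interval leaves out a 2-fold change in either direction, and for 12 it leaves out a 1.5-fold change. With the groups brought to an equal sum of FPKM, 29 ratios were below 0 and 4 above, 4 genes were called lower (Creld2, Herpud1, Hyou1 and Dnajb9) and Derl3 still higher. That scaling keeps the standard errors and lowers every log2 ratio by 0.19. Under it 77.2% of all tested genes lay below 0 and 140 of 11515 were called lower.

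**Figure D4:**
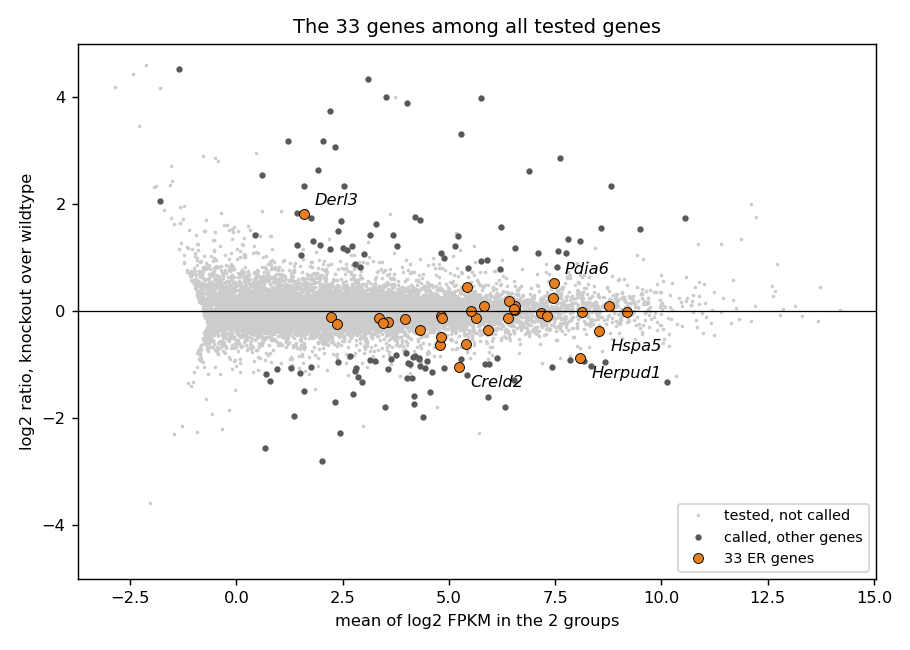
The log2 ratio of knockout over wildtype against the mean of the log2 FPKM of the groups for tested genes with a value above 0 in both; orange marks the 33 ER genes, dark grey the other called genes and light grey the rest. Most orange points sit at the expressed end, while Derl3, Eif2ak3 and Ppp1r15a have lower levels. All but Derl3 and Creld2 lie within the grey cloud (10 other genes lie beyond the vertical range of 5).

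Reads of overlapping genes cannot be separated here, since the labels do not say whether strand was kept. In GENCODE M21, 12 of the 33 genes share exon bases with another annotated gene, 6 of them with a protein-coding one, and neither Derl3, Creld2 nor Herpud1 is among the 12. Counted for each overlapping gene separately, the 3 largest shares were 12.8% of the exonic length of Ssr2, 10.3% of Hsp90b1 and 8.16% of Sec61a1. For Pdia6 the deposited locus, chromosome 12 from 17266595 to 17324730, reaches well past the annotated gene end at 17284770 over Atp6v1c2, which was at 0.0145 and 0.0333 FPKM. The Syvn1 locus, chromosome 19 from 6046576 to 6057751, likewise passes the annotated gene end at 6053712. Syvn1 shares 91 exon bases (1.87% of its exonic length) with Mrpl49, which was at 19.1 and 19.8 FPKM. The weight of those reads in the Syvn1 values was not tested.

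Beyond the 33, other genes of the same pathways were read from lists of related steps. Of 17 tested further chaperones and prolyl isomerases 0 passed (0 at an unadjusted p under 0.05, median 0.05), and Serp1, which stabilises membrane proteins in stress, had the smallest p at 95.7 FPKM in knockout livers and 129 FPKM in wildtype livers. Of 13 further genes of oxidative folding 0 passed, and Qsox1, a secreted sulfhydryl oxidase, was at 283 and 171 FPKM (0.73 ± 0.28, unadjusted p = 0.00914 and q = 0.361 by the authors' deposited table), with no other member at an unadjusted p under 0.05. The 27 further genes of translocation, signal peptide removal and N-glycosylation held 0 calls and 0 at an unadjusted p under 0.05, with a median of -0.02 and Dad1, an oligosaccharyltransferase subunit, at 203 and 163 FPKM. The 21 further degradation genes were alike, with 0 calls, 0 at an unadjusted p under 0.05, a median of -0.06 and Edem3 at 4.99 and 6.14 FPKM. Of 11 tested further sensors, proteases and factors none passed and 0 had an unadjusted p under 0.05, with Nfe2l2 at 18.2 and 23.1 FPKM.

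Downstream of PERK the genes went both ways. Chac1, a glutathione-degrading enzyme, rose from 1.85 FPKM in wildtype to 6.21 FPKM in knockout livers (1.75 ± 0.37, q = 0.000521 in the authors' deposited table), alone among 12. Ppp1r15b, a partner of the phosphatase that reverses the PERK signal, was the other of 2 at an unadjusted p under 0.05, at 18.1 FPKM in knockout livers and 24.6 FPKM in wildtype livers (-0.44 ± 0.22). Ddit3 (CHOP), the factor linked to cell death in prolonged stress, was at 8.87 FPKM in knockout livers and 17.6 FPKM in wildtype livers, with an error too wide for a call (-0.99 ± 0.65). Atf4 was at 55.5 and 52.2 FPKM (0.09 ± 0.22), Trib3 at 4.40 and 3.34 FPKM and Atf3 at 0.867 and 1.36 FPKM. The median over the 12 was -0.02.

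Known targets of the stress factors showed 1 further call. Of 6 tested targets of CREBH, Apcs, the serum amyloid P component, rose from 47.7 FPKM in wildtype to 296 FPKM in knockout livers (2.63 ± 0.27, with q printed as 0 in the authors' deposited table). It was the 1 target at an unadjusted p under 0.05, and of the 6 ratios 4 were above 0 and 2 below. Crp was at 234 and 174 FPKM, Hamp at 1492 and 1316 FPKM and Apoc2 at 406 and 385 FPKM. On the lower side were Apoa4 at 86.5 and 98.6 FPKM and Cidec at 1.41 and 1.76 FPKM. Apcs is an acute phase gene as well, and Creb3l3 itself stood at 143 and 145 FPKM. The 7 mRNAs known as substrates of IRE1-dependent decay held 0 calls and 0 at an unadjusted p under 0.05, with a median of -0.04 and Bloc1s1 at 180 and 140 FPKM.

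**Figure D5:**
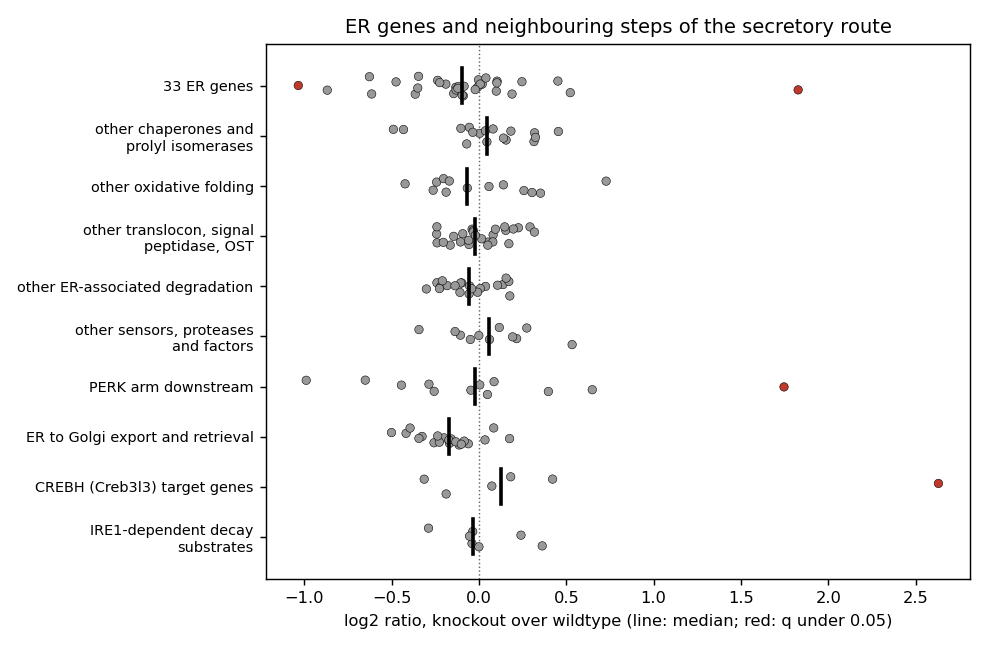
The log2 ratio of knockout over wildtype for the 33 ER genes and for 9 lists of related genes, 1 point per tested gene, with a line at each median and called genes in red. Beside Derl3 and Creld2, the red points are Chac1 at 1.75 and Apcs at 2.63, and the list medians lie between -0.17 (export) and 0.13 (CREBH targets).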

How the data were processed

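Liver RNA of 6 mice was sequenced as single-end reads. Per the submitters' processing notes, reads were aligned with Bowtie2, and the build is mm10. The program behind the tables, its annotation and its treatment of multiply mapped reads are not given in the sources used here. No header states a unit for the group values; they were taken as the authors' FPKM because the deposited table has the Cuffdiff layout. The authors' deposited log2 ratio (wildtype over knockout) was turned round. Their deposited test score equals a normal z to within 2.63e-06 in p, and their deposited q-value equals the p-value after Benjamini-Hochberg adjustment over 11515 tested genes. The standard error is the ratio divided by that z, and 95% intervals are 1.96 standard errors either side. Library depth is unknown, and whether the libraries come from separate mice rests on the animal numbers in their names.

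The planned test on values per library could not be run, and no count model was used. All 33 genes are named, and from each related list its called genes, or the gene with the smallest p. Other genes named were chosen after their values were seen. Members and lists were chosen with earlier results of these data known. A shorter deposited list of 95 genes holds Creld2 and Derl3 too and was not tested separately. Scripts ran under Python 3.11.15 with pandas 2.3.3, numpy 2.4.6 and scipy 1.17.1. Coordinates are those of the deposited table with 1 added to each start.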

Additional observations from a re-analysis of the deposited data

How the results depend on the processing

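Of the 9 alternatives, the 2 pseudocounts and q under 0.10 could not undo a call. Under the other 6 Derl3 stayed higher and Creld2 lower, each called, with q between 0.00197 and 0.00909 for Derl3 and between 7.28e-05 and 0.00537 for Creld2. The Derl3 ratio was 1.36 with a pseudocount of 1. Members called lower, 1 as deposited, were 2 at q under 0.10, after quantile normalization and with the same sum without the 100 highest genes, and 4 with the groups scaled to an equal sum, where 5 members were called in all. That scaling also gave 189 calls over all genes (140 lower), against 124 (58 lower) as deposited and 79 (32 lower) at q under 0.01. Scaling to the same sum turned the sign of Calr (-0.10), Canx (-0.18), Pdia4 (-0.0911), Dnajc3 (-0.19), Derl1 (-0.0922), Xbp1 (-0.15) and Ssr2 (-0.0054), none of them called. Without the 100 highest genes Canx (-0.0338), Dnajc3 (-0.0449) and Xbp1 (-0.0125) turned, and after quantile normalization Dnajc3 (-0.0042). The first of these scalings lowers every log2 ratio by 0.19 and the second by 0.05, which turns such small ratios. For quantile normalization the cause was not tested. No paired analysis was possible because the files hold 1 value per group and the animal numbers are not shared between groups. For the same reason no library could be left out, and DESeq2 was not run. With a median standard error of 0.279, the smallest called ratio was 0.78 in size.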

Other observations

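The genes of vesicle export from the ER and of retrieval from the Golgi lay mostly on the lower side in the knockout livers. Of 20 tested members of that list 17 had ratios below 0, with a median of -0.17, where 50.1% of all tested genes lay below 0. Of all tested genes 5.29% had an unadjusted p under 0.05. In this list none passed 0.05 by the authors' deposited q, and 1 had an unadjusted p under 0.05. That gene was Sec24a, a cargo-binding subunit of the COPII coat, at 10.5 FPKM in the knockout and 14.9 FPKM in the wildtype group (log2 ratio -0.50 ± 0.22). Lman1, a cargo receptor for glycoproteins such as clotting factors, was at 72.4 and 95.1 FPKM. After quantile normalization the list median was -0.17 and that of all tested genes -0.02. The other scalings lower every gene alike and leave the list's distance from all tested genes as it was.

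An exact ERSE occurred in the promoter window of 37 of 27025 genes, of which 10 were among the 33 ER genes and 6 were other tested genes. Of these 6, Alg12 shares its match with Creld2, since their windows overlap. Of the 6, 1 was called, where 1.08% of all tested genes were. A looser form, with CCNNG in place of CCACG, occurred in 204 tested genes outside the 33, and the same 1 was called. Whether a match goes with a call was not tested. Acacb, the acetyl-CoA carboxylase of the mitochondrial surface, fell from 17.8 FPKM in the wildtype to 10.1 FPKM in the knockout group (-0.81 ± 0.22, q = 0.0336 in the authors' deposited table). Acnat2, an acyl-CoA amino acid N-acyltransferase, was at 6.40 FPKM in the knockout and 3.47 FPKM in the wildtype group (0.88 ± 0.34, q = 0.341 in the authors' deposited table). Both were chosen after their values were seen.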
